A study of Mus musculus with 25 samples.

Results

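Hotspots of the no-UV controls were 6485 single nucleotides of the mouse genome (build mm9, counted from 1) that the authors listed as peaks in at least 1 of 3 iCLIP libraries labelled as made without UV light. They were found as the union of the peak lists of the WT, mutZn and D27aa no-UV libraries, matched on chromosome, position and strand. The WT list gave 3666 nucleotides, the mutZn list 2481 and the D27aa list 847. The 3 libraries together held events at 182516 nucleotides, and all 25 libraries of the series at 19761337. Because the no-UV scores chose these nucleotides, no-UV values at a nucleotide's own list are given as a description, with no test.

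iCLIP maps where a protein touches RNA. UV light couples proteins to the RNA they touch, an antibody pulls down the protein, and reverse transcription stops at the link, so the end of each cDNA marks a nucleotide. A library made without UV goes through the same steps and records which RNAs still yield cDNAs, and peaks called in it serve as a map of background. SRSF7 is a serine/arginine-rich protein with an RNA recognition motif and a zinc knuckle that takes part in splicing and export of mRNA.

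All libraries came from P19 cells, a mouse embryonal carcinoma line, and all groups but 1 came from cells that carried a GFP-tagged SRSF7. The anti-GFP groups were SRSF7-GFP OE (called WT, n = 3), SRSF7mutZn-GFP (mutZn, n = 2) and SRSF7D27aa-GFP (D27aa, n = 2), all irradiated at 254 nm, each with 1 no-UV library. piCLIP libraries of SRSF7-GFP OE cells came from monosomal and polysomal fractions, with 2 immunoprecipitates (mono_IP, poly_IP) and 1 IgG control (mono_IgG, poly_IgG) of each, the IgG controls being named so in titles and headers while their antibody field reads anti-EGFP. Anti-SRSF7 libraries of SRSF7-GFP OE cells were GFP_OE, endo_OE and RRM_OE (n = 2 each), 1 library without UV (GFP_OE_noUV), and 1 irradiated library without antibody (GFP_OE_noAb). The title of GFP_OE_noUV names it with GFP_OE, but its header gives the condition as noUV-trunc, and the word trunc also stands in the header of RRM_OE 3, so which of GFP_OE and RRM_OE it controls is not settled and its values are set beside both. The last group, endo_WT, was 1 anti-SRSF7 library of cells whose genotype is given as WT. What the names mutZn, D27aa, endo and RRM stand for is not spelled out in the labels, and nothing there says whether a line was 1 clone. Since no annotation of mm9 was used here, positions carry no gene names and the cell line was not checked against marker genes.

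Values are cDNA events, or events per 1e+06 events of a library (CPM). Depth ran from 221746 to 11782376 events in the 7 UV anti-GFP libraries (24258658 in sum), and was 89070 in the WT, 66690 in the mutZn and 34947 in the D27aa no-UV library. There, 1 event equalled 11.2, 15 and 28.6 CPM. The other controls were smaller: 1153 events in mono_IgG, 11177 in poly_IgG, 3080 in GFP_OE_noAb and 1789 in GFP_OE_noUV. Intervals below are exact (Clopper-Pearson) 95% intervals and cover counting error only. The submitters' design text states biological replicates, but the headers give WT 3 and WT 4 the same replicate number and the same run. If they are not separate cultures, p-values that use WT measure a partly technical spread.

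Several controls shared nucleotides with other libraries of their run. Of the 34093 nucleotides with an event in the D27aa no-UV library, 31.3% also held an event of WT 4, against 9.52% of the positions 1 to 2 nt away, a ratio of 3.29. With the other libraries of the same run the ratio was 1.11 for WT 3, 1.12 for mutZn 4 and 1.13 for D27aa 2. The 4-letter barcodes of the D27aa no-UV library and WT 4 differ in 1 letter, and those of the other 3 in 2 to 4. For the WT and mutZn no-UV libraries, the ratio to libraries of their own run was between 1.03 and 1.09. Sharing was also seen in controls outside the lists. The ratio of mono_IgG to the other piCLIP libraries, all of 1 run, was between 1.86 and 3.05, at 14.0% to 25.6% of its 687 nucleotides, and that of poly_IgG between 1.53 and 2.5. GFP_OE_noUV had a ratio of 4.76 to GFP_OE_noAb (at 2.90% of its 1726 nucleotides), 2.05 to RRM_OE 3 (at 3.65%) and 1.04 to GFP_OE 3, all of 1 run. What the sharing contributed to the D27aa list and to the values of these controls was not tested. Without the D27aa list, 5839 nucleotides in 1749 loci stayed, of which 308 were in both lists. Counts over all 3 lists and values of the D27aa no-UV library itself have no such version.

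Most listed nucleotides carried very few events. In their own library, 2474 nucleotides of the WT list (67.5%), 1889 of the mutZn list (76.1%) and 542 of the D27aa list (64.0%) had 1 event. Scores of 3 or more were found at 371, 89 and 42 nucleotides. The score alone did not decide membership, since the authors compared each score with permutations over its 15 nt neighbourhood. Of the nucleotides with 3 or more events, 77.0% were listed for WT, 67.4% for mutZn and 63.6% for D27aa, and of those with 1 event 3.00%, 2.97% and 1.62%. The strongest listed positions were chrM:2703 (plus strand) with 157 events (1763 CPM) in the WT library, chr17:39984614 (plus) with 9 (135 CPM) in the mutZn library and chr3:5860771 (plus) with 15 (429 CPM) in the D27aa library. The strongest position left unlisted was chr15:72737571 (plus), with 70 events (786 CPM) in the WT and 18 (515 CPM) in the D27aa no-UV library, and for mutZn it was chr19:5796471 (minus) with 5 events (75.0 CPM).

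The lists overlapped little at single nucleotides. In all, 6017 nucleotides were in 1 list, 427 in 2 and 41 in all 3, so that 468 (7.22%) were in 2 or 3. WT and mutZn shared 308, which was 8.40% of the WT and 12.4% of the mutZn list. WT and D27aa shared 159 (4.34% and 18.8%), and mutZn and D27aa 83 (3.35% and 9.80%). Within 5 nt on the same strand the overlap was larger: 28.6% of the WT list lay near a mutZn entry and 27.3% of the mutZn list near a WT entry, and 42.1% of the D27aa list lay near a WT entry. The numbers of the D27aa list near a WT entry rest on a library that shares nucleotides with WT 4.

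The hotspots were clustered. Joining nucleotides up to 50 nt apart gave 2055 loci, of which 850 were a single nucleotide. The 197 loci of 5 or more held 3137 hotspots (48.4%), and the 10 largest held 1264 (19.5%). Only 44 loci drew on all 3 lists, but they held 1667 hotspots (25.7%). Chromosome 17 carried 1325 hotspots (20.4%), which is a share of listed positions. Its share of all events was between 5.60% and 6.87% in the 7 UV anti-GFP libraries. Without UV its share of events was similar, at 6.49% for WT, 5.91% for mutZn and 6.34% for D27aa. Chromosome M carried 152, of which 149 were in the WT list, 3 in the mutZn list and 0 in the D27aa list.

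With joining over 2000 nt, 3 stretches stood out and together held 1438 hotspots (22.2%) and 287 of the 468 shared ones (61.3%). They held 25.8% of the WT, 22.5% of the mutZn and 29.0% of the D27aa list. Levels of a stretch are given in CPM over all events between its outer hotspots.

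The largest lay on the plus strand at chr17:39979938-39985045 and held 687 hotspots, 157 of them in 2 or 3 lists. Its level was 5150, 8508 and 6322 CPM in the 3 WT libraries (6660 ± 1705, SD) and 10857 CPM in the WT no-UV library, which lay above all 3. In mutZn it was 5423 and 6272 CPM with UV and 6598 CPM without, and in D27aa 6891 and 7853 CPM with UV and 8756 CPM without. The no-UV value was thus the highest of each protein, and the hotspots of a stretch were chosen on these no-UV libraries. It rested on 440 events for mutZn and 306 for D27aa, and its margin over the higher UV library of each was not tested. Controls that took no part in the choice were also high here. GFP_OE_noUV had 12856 CPM (23 events), against 10746 and 27030 CPM in GFP_OE and 17734 and 25988 CPM in RRM_OE, and mono_IgG had 16479 CPM (19 events). The library without antibody had 65909 CPM, the highest of all 25: 203 of its 3080 events, or 6.59% (5.74% to 7.53%), came from these 5108 nt. The endo_OE libraries had 24257 and 30010 CPM and endo_WT 10114 CPM. In poly_IgG the level was 2595 CPM (29 events).

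The second stretch, at chr17:80603513-80604761 on the minus strand, held 411 hotspots in 1249 nt, 118 of them in 2 or 3 lists. Here the WT no-UV level lay within the range of the WT libraries. These had 12785, 7813 and 6071 CPM (8890 ± 3484) and the WT no-UV library 6085 CPM. D27aa had 9075 and 8630 CPM with UV (8852 ± 315) and 5980 CPM without. mutZn was lower with UV, at 2565 and 2254 CPM (2410 ± 220), than without, at 4693 CPM. WT was 3.69 times mutZn and the groups did not overlap; the two-sided exact permutation test gave p = 0.2, the smallest that 3 against 2 libraries allow. In run 6 alone, WT 3 and WT 4 had 7813 and 6071 CPM and mutZn 4 had 2254 CPM. Among anti-SRSF7 libraries of one run the level was 10318 CPM in GFP_OE 4, 13843 CPM in RRM_OE 4, 15336 and 15866 CPM in endo_OE and 1021 CPM in endo_WT, which came from cells of genotype WT. With 1 library, the endo_WT value has no replicate check. GFP_OE_noUV had 22918 CPM (41 events) and GFP_OE_noAb 6818 CPM (21 events). In poly_IgG 0 of 11177 events fell here, where a floor of 3 events would be a share of 0.0268%.

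The third stretch, on the minus strand at chr19:5796085-5801957, held 340 hotspots, of which only 12 were in 2 or 3 lists and 2 came from the D27aa list. Summed over the whole stretch, differences between the proteins were within the spread of the WT libraries. WT libraries had 14291, 10421 and 8958 CPM, mutZn 9973 and 9826 CPM and D27aa 12004 and 12017 CPM. Without UV it was 13495, 13165 and 9099 CPM for WT, mutZn and D27aa. These mutZn and D27aa values fell inside the WT range, and of the controls only poly_IgG was far from the rest, with 358 CPM (4 events). The locus chr19:5801714-5801957 within the stretch differed. It held 135 of the hotspots, all from the WT list. Its level was 2515 CPM in the WT, 315 CPM in the mutZn and 143 CPM in the D27aa no-UV library. With UV it was 2124, 376 and 291 CPM in WT, 170 and 179 CPM in mutZn and 738 and 622 CPM in D27aa.

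**Figure D1:**
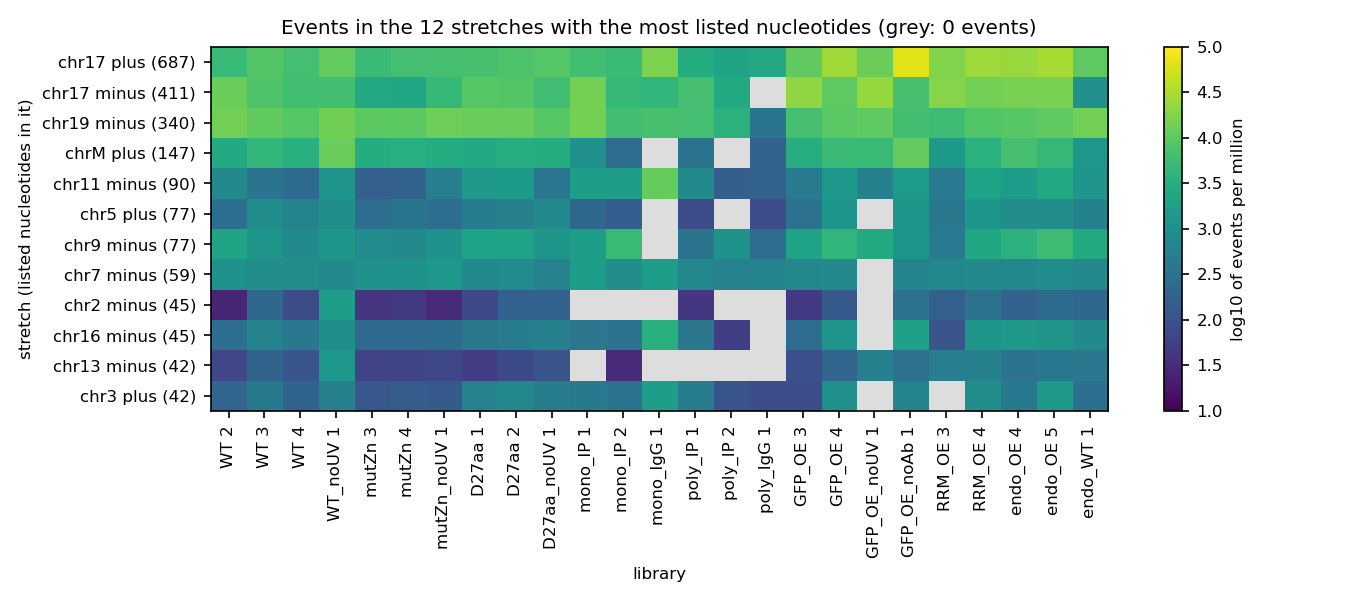
CPM (colour, log10 scale) in the 12 stretches with the most hotspots (vertical, number of hotspots in brackets) for all 25 libraries (horizontal), with grey for 0 events. The 3 largest stretches are bright in nearly all libraries, the no-antibody library reaches 65909 CPM in the first, and poly_IgG has 0 events in the second.

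Several smaller stretches had a level that differed between the protein groups or was high in 1 library. The groups also differ in depth and run, and the part of these in the differences was not tested. At chr11:108873023-108873415 (minus, 90 hotspots) D27aa had 1467 and 1500 CPM, WT 762, 347 and 251 CPM and mutZn 168 and 176 CPM. D27aa was 3.27 times WT and 8.64 times mutZn, with no overlap, at exact permutation p of 0.2 and 0.333, again the smallest possible. In mono_IgG 13 events gave 11275 CPM there. A similar order was seen at chr6:128749485-128749508 (minus), where 21 of 24 consecutive nucleotides were hotspots and 4 were in all 3 lists. D27aa had 3089 and 2811 CPM there, WT 1669, 292 and 148 CPM and mutZn 100 and 95 CPM, against 808 CPM in the WT, 345 CPM in the mutZn and 258 CPM in the D27aa no-UV library. This short segment held 112 of the 11177 events of the polysomal IgG control, or 1.0% (0.826% to 1.20%).

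Other segments were high in 1 of the 3 no-UV libraries that gave the lists. On chromosome M, the stretch chrM:32-3877 (plus, 147 hotspots) had 12047 CPM in the WT no-UV library, against 2787, 4442 and 3448 CPM in WT, 2984 CPM in the mutZn no-UV and 2976 CPM in the D27aa no-UV library. GFP_OE_noAb also had 11039 CPM there (34 events, 7657 to 15392 CPM), and GFP_OE_noUV 5031 CPM (9 events). The 45 hotspots at chr2:22600397-22600639 (minus) had 1684 CPM in the WT no-UV library and 27.1, 219 and 81.5 CPM in the WT libraries. Their level was 30.0 CPM in the mutZn and 172 CPM in the D27aa no-UV library.

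A different shape was seen at chr9:78023145-78023238 (minus), a segment in which 77 of 94 nucleotides were hotspots, 33 of them in 2 or 3 lists. Its level without UV was nearly the same for each protein, at 1314, 1125 and 1316 CPM for WT, mutZn and D27aa. With UV it was 2192, 1162 and 792 CPM in WT, 845 and 821 CPM in mutZn and 2083 and 2006 CPM in D27aa. D27aa lay within the WT range and above both mutZn libraries.

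The 41 nucleotides found in all 3 lists came from few places. On the plus strand of chromosome 17, 18 lay between 39983430 and 39984887. A further 9 were on its minus strand between 80603530 and 80604416, 6 in the chromosome 9 segment and 4 in the chromosome 6 segment. The last 4 were 2 on chromosome 13 and 1 each on chromosomes 11 and 4. None of the 41 lacked UV events, 7 had a single event in each no-UV library, and at 13 the mean UV level was above the mean no-UV level. At chr17:39984459 (plus) the WT libraries had 6, 7 and 20 events and the no-UV library 2, mutZn 74 and 40 and the no-UV library 1, and D27aa 24 and 24 and the no-UV library 6. At chr6:128749495 (minus) the counts were 56, 35 and 41 against 12 for WT, 78 and 48 against 2 for mutZn, and 150 and 145 against 1 for D27aa. At chr9:78023166 (minus) they were 57, 43 and 70 against 7, 209 and 124 against 1, and 45 and 91 against 1. Each of these nucleotides thus held events in all 7 UV and all 3 no-UV libraries.

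The share of a library's events that fell on the 6485 hotspots was small with UV and larger without. In WT it was 3.02%, 1.83% and 1.25% with UV (2.03 ± 0.90%, SD, n = 3) and 7.19% (7.02% to 7.36%) without. In mutZn it was 0.829% and 0.871% (0.850 ± 0.030%, n = 2) and 5.04% (4.87% to 5.21%) without UV. In D27aa it was 2.98% and 3.16% (3.07 ± 0.13%, n = 2) and 3.96% (3.76% to 4.17%) without UV. Each no-UV library gave one of the lists, so these shares are a description, and the comparison outside the choice is given further on. Without the D27aa list the UV shares were 1.94 ± 0.89% for WT, 0.793 ± 0.029% for mutZn and 2.99 ± 0.14% for D27aa, against 7.18%, 5.03% and 1.21% without UV. The deeper the UV library of WT, the lower its share was, and the deepest libraries, those of mutZn, had the lowest; the part of depth in these differences was not tested.

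The controls that gave no list hold the comparison that the choice did not make. The no-antibody library had 6.53% (5.68% to 7.46%) of its events at hotspots, 201 events at 124 nucleotides. GFP_OE from the same antibody series had 4.01% and 3.85%, and GFP_OE_noUV 3.69% (2.86% to 4.67%), 66 events at 59 nucleotides. The interval of GFP_OE_noUV includes both GFP_OE values and both RRM_OE values, at 3.62% and 4.35%, so against neither was a difference between UV and no UV detectable at this depth. The polysomal IgG library had 6.15% (5.71% to 6.61%), above the polysomal immunoprecipitates at 2.06% and 1.86%. The monosomal IgG library had 4.16% (3.09% to 5.48%), an interval that holds both monosomal immunoprecipitates, at 4.50% and 3.3%. Both IgG libraries share nucleotides with the immunoprecipitates of their run, as given above. Shares were 5.24% and 5.79% in endo_OE and 2.33% in endo_WT.

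**Figure D2:**
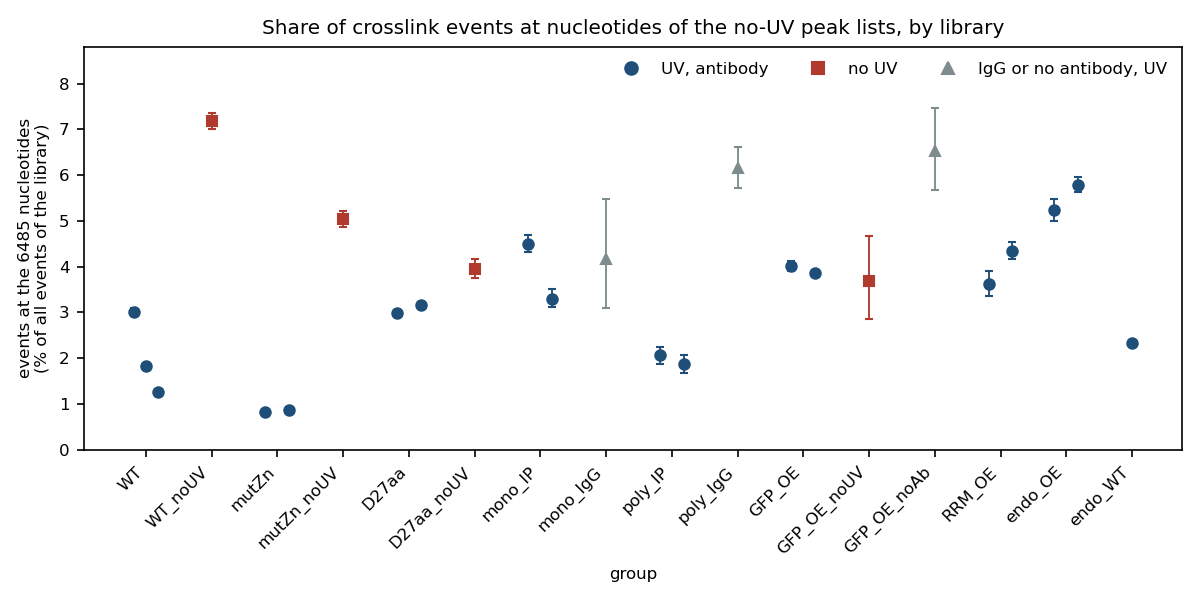
Share of each library's events at the 6485 hotspots (vertical, percent) by group (horizontal); each point is 1 library, bars are exact 95% intervals, circles are UV libraries with antibody, squares no-UV libraries and triangles IgG or no-antibody libraries. The WT and mutZn no-UV squares lie far above their UV circles, while the GFP_OE_noUV square, from a library that gave no list, lies at 3.69%, with an interval that spans the circles of GFP_OE and RRM_OE.

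The hotspot events of the controls did not all sit in the same places. In the no-antibody library 80.6% of them lay in the 3 largest stretches, led by chr17:39984552 with 10 events, chr17:39984126 and chr17:39984422 with 8 each and chr17:39984882 with 7, all on the plus strand. In GFP_OE_noUV 71.2% lay in these stretches, and no hotspot had more than 3 events. In poly_IgG it was 2.33%; its leading hotspots were chr12:110252416 and chr12:110252415 (minus) with 40 and 27 events, chr4:105310457 (plus) with 38, and chr6:128749494 and chr6:128749501 (minus) with 31 and 26. In mono_IgG 29.2% of 48 events lay in the 3 stretches and chr11:108873093 (minus) led with 5 events. For the 7 UV anti-GFP libraries this part ranged from 39.9% to 59.3%. The leading hotspots named for the no-antibody library and for poly_IgG thus differed. In GFP_OE_noUV and mono_IgG most hotspots with an event had only 1, too few to rank them. Whether these libraries share leading hotspots with the others cannot be told.

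To compare UV with no UV outside the choice of nucleotides, each library was read only at nucleotides of the lists of the other 2 proteins. For WT (3245 nucleotides), the no-UV share was 1.15% (1.08% to 1.22%) and the UV shares were 1.55%, 1.01% and 0.701% (1.09 ± 0.43%), so the no-UV value lay inside the UV range. For mutZn (4354 nucleotides), 0.969% (0.896% to 1.05%) without UV lay above both UV libraries, at 0.642% and 0.683%, a ratio of 1.46. For D27aa (5839 nucleotides), 1.21% (1.10% to 1.33%) without UV lay below both UV libraries, at 2.89% and 3.09%, a ratio of 0.404. With 1 no-UV library for each protein there is no test of these differences. The same D27aa set held 2.92%, 1.74% and 1.17% of the events of WT 2, WT 3 and WT 4. With WT 4 the D27aa no-UV library shares nucleotides. What this sharing contributed to the ratio was not tested. Without the D27aa list the ratio was 1.04 for WT and 1.46 for mutZn.

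**Figure D3:**
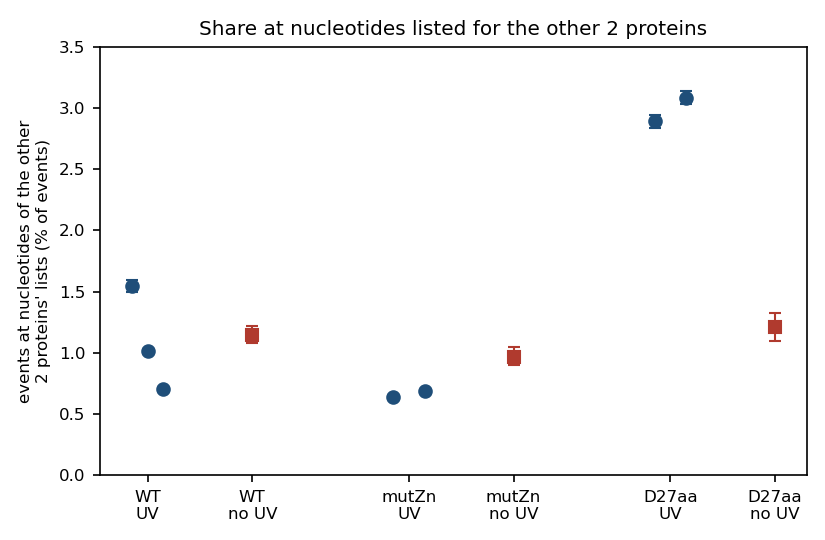
Share of events (vertical, percent) of the UV (circles) and no-UV (squares) libraries of each protein at nucleotides listed for the other 2 proteins; bars are exact 95% intervals. The no-UV square lies among the WT circles, above both mutZn circles and below both D27aa circles.

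Events were concentrated on the listed nucleotide itself only mildly. Relative to the mean level 6 to 15 nt away, the level at the hotspot was 1.73, 1.57 and 1.5 in the WT libraries, 1.44 and 1.47 in mutZn and 1.84 and 1.95 in D27aa. The no-UV libraries, each read at the other lists, had 1.68 for WT, 1.46 for mutZn and 1.38 for D27aa. At 1 nt downstream the WT libraries still had 1.47, 1.51 and 1.44. In the mutZn and D27aa no-UV libraries the highest of these levels lay beside the hotspot, 1.52 at 2 nt and 1.53 at 1 nt downstream. The polysomal IgG library had the sharpest summit, at 4.21, and GFP_OE_noUV among the flattest, at 1.36. In the UV anti-GFP libraries the hotspots were thus, on average, mild local rises within covered segments. Without UV, read at the other lists, the level at the hotspot hardly differed from that 1 to 2 nt away. The ratio was 1.11 for WT, 1.04 for mutZn and 1.01 for D27aa. At the same nucleotides the UV libraries had 1.18, 1.16 and 1.14 for WT and 1.05 and 1.06 for mutZn, close to the no-UV ratios. Only for D27aa, at 1.26 and 1.33, were the UV ratios well above the no-UV ratio.

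**Figure D4:**
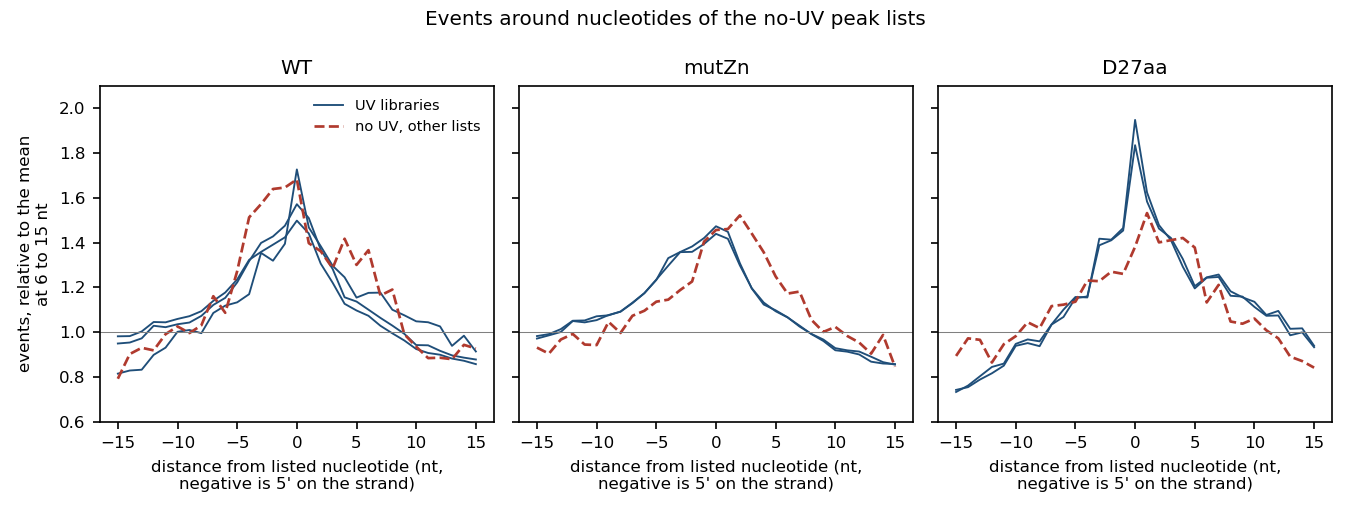
Events around the hotspots (vertical, relative to the mean at 6 to 15 nt, horizontal axis in nt, negative is 5′ on the strand) for WT, mutZn and D27aa; solid lines are UV libraries and dashed lines no-UV libraries read at the lists of the other 2 proteins. Each line has its broad rise within a few nt of the hotspot, reaching 1.95 in D27aa 2 and 1.38 in the D27aa no-UV library at the hotspot itself.

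Of all hotspots, 2136 (32.9%) had no event in any of the 7 UV anti-GFP libraries, despite their 24258658 events, and 2089 had none in the 22 libraries other than the no-UV libraries that gave the lists. Of the 2136, 334 also had no UV event within 50 nt, and the others had at least 1 there. The share did not fall steadily with the score. Among hotspots with a highest score of 1, 31.3% lacked a UV event, among those with 2 events 46.6%, and among those with 3 or more 5.51%. The peak at 2 events was steepest in the D27aa list, where 178 of 263 nucleotides (67.7%) had no UV event, against 19.4% at 1 event and 9.52% at 3 or more. Hotspots in 2 or 3 lists were nearly always covered: 2 of 468 lacked a UV event.

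**Figure D5:**
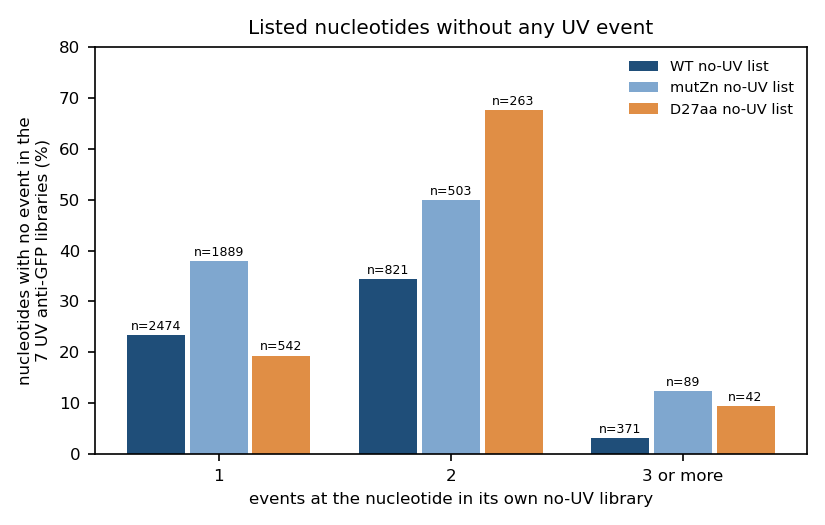
Share of hotspots with no event in the 7 UV anti-GFP libraries (vertical, percent) by their number of events in their own no-UV library (horizontal), for the 3 lists, with the number of nucleotides above each bar. In every list the bar at 2 events is the highest, up to 67.7% for D27aa.

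Many hotspots were also peaks with UV. Of all, 4148 (64.0%; 3809, or 65.2%, without the D27aa list) were in at least 1 of the authors' UV peak lists and 1846 (28.5%) in all 3. The WT list of UV peaks held 58.3% of them, the mutZn list 57.1% and the far shorter D27aa list 31.6%, each list being made on the summed replicates. For hotspots in 2 or 3 no-UV lists, the counts were 467, 463 and 392 of 468. For comparison, of the unlisted nucleotides with an event in the WT no-UV library 10.1% were WT UV peaks, and in the mutZn no-UV library 10.5% were mutZn UV peaks. UV and no-UV peaks were called by the same neighbourhood rule. The polysomal IgG peak list held 7 hotspots among its 192 peaks and the monosomal one 0 among 5.

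For the 43 hotspots with at least 10 no-UV events in sum, levels with and without UV can be set side by side for single nucleotides. At 35 the mean UV level was lower than the mean no-UV level and at 8 higher, with a median log2 difference of -3.73 and a range from -7.89 to 1.43. High no-UV counts chose these positions, so the lean towards no UV is a description. The lowest was chr5:43415958 (plus), with 10 events in the WT no-UV library, 0, 1 and 2 in WT and 0 in the other anti-GFP libraries. At chrM:2703 (plus), 157 events in the WT no-UV library stood against 3, 19 and 11 in WT, 18 and 17 in mutZn, 13 and 18 in D27aa, and 3 and 0 in the mutZn and D27aa no-UV libraries. A similar pattern held for chrM:36 (plus), with 87 events in the WT no-UV library and 1, 7 and 20 in WT. On the minus strand of chromosome 18, 3 further positions of the WT list had 29 to 87 events. The UV mean covers anti-GFP libraries only. On that strand, the segment chr18:73693128-73693148 had 2223 CPM in the WT no-UV library and 198, 365 and 50.3 CPM in WT. Irradiated anti-SRSF7 libraries were also high there, with 2536 and 1853 CPM in endo_OE and 1914 and 2210 CPM in RRM_OE. GFP_OE had 1727 and 437 CPM and endo_WT 1433 CPM. The highest UV level relative to no UV was at chr17:39984882 (plus), with 46, 64 and 125 events in WT, 173 and 125 in mutZn and 74 and 116 in D27aa, against 4, 6 and 0 without UV.

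Whether the UV level at hotspots depends on the protein was tested on the UV libraries, which had no part in the choice. The test was limma-voom on library-total scaling with Benjamini-Hochberg adjustment over all 1965 nucleotides that reached 9.10 CPM in 2 libraries and 15 events. Of the 6485 hotspots, 911 reached this minimum, 109 of them (12%) only through D27aa and 89 (9.77%) only through WT, so counts over the 911 are read against all tested nucleotides and not as evidence of their own.

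mutZn levels were lower than WT at 187 hotspots and higher at 0, against 15.9% of all tested nucleotides called lower and 0% called higher (limma-voom, Benjamini-Hochberg adjusted p under 0.05). At unadjusted p under 0.05, 364 were lower and 3 higher. The median log2 change was -1.24 over the hotspots tested and -1.11 over all nucleotides tested. Of the 187, 142 lay in the chromosome 17 minus-strand stretch, where 241 were tested, while in the plus-strand stretch 2 of 182 passed. The largest fall was at chr17:80603525 (minus), with 26, 35 and 82 events (117, 31.8 and 20.7 CPM) in WT and 36 and 14 events (3.06 and 2.18 CPM) in mutZn, a log2 change of -4.30 ± 0.66 (SE; limma-voom, Benjamini-Hochberg adjusted p = 0.014). At chr13:22027382 (minus), 40.6, 17.3 and 9.61 CPM in WT stood against 2.04 and 0.93 CPM in mutZn, and both libraries of mutZn were below all of WT. No call was left without WT 3, mutZn 3 or mutZn 4, with run as a block, with WT 3 and WT 4 summed, with limma-trend (205 lower and 0 higher at unadjusted p under 0.05) or with scaling to the median log ratio. Without WT 2 there were 316 calls, without WT 4 there were 290, and with only the 2 groups fitted 479. Median scaling moved library sizes by 1.12, -0.05 and -0.73 (log2) for WT, -1.31 and -1.49 for mutZn and 1.22 and 1.24 for D27aa, so every change above is relative to library totals.

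D27aa levels were higher than WT at 344 hotspots and lower at 28 of the 911, against 45.2% and 3.05% of all tested nucleotides; the median log2 change was 1.09, against 1.49 over all. With median scaling the split became 103 higher and 44 lower, and the count of calls was 187 with run as a block, 76 with limma-trend, 182 with only the 2 groups fitted, 139 without WT 4 and 580 without WT 2. Of the 6 largest rises, 5 were at hotspots with at most 1 event in WT 3 and in WT 4. At chr14:48410542 (plus) D27aa had 60 and 90 events (159 and 232 CPM), WT 5, 0 and 0, mutZn 0 and 0, and the WT no-UV library 3, a log2 change of 8.79 ± 1.28 (SE; limma-voom, Benjamini-Hochberg adjusted p = 0.00086). Only WT 2 and both D27aa libraries reached the CPM minimum there. At chr6:128749489 (minus) D27aa had 401 and 327 CPM and WT 117, 6.37 and 0.25 CPM, a change of 7.66. Of the 6 largest falls, 5 had no event in either D27aa library. At chr17:39984542 (plus) WT had 1, 33 and 83 events and mutZn 98 and 93, while D27aa had 0 and 0, at least 4.72-fold lower than WT (floor of 3 events over the group). In the same stretch chr17:39984416 had 1, 25 and 111 events in WT, 93 and 97 in mutZn and 0 and 0 in D27aa. The D27aa no-UV library had 2 events at this nucleotide, and 3 at chr17:80604549 (minus), where D27aa again had 0 and 0 and WT 5, 20 and 64.

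Between mutZn and D27aa, 543 hotspots were lower in mutZn and 5 higher, against 61.9% and 1.07% of all tested nucleotides (median log2 change -2.45, and -2.70 over all). With median scaling the split was 173 lower and 124 higher, and the count of calls was 232 with run as a block, 360 with limma-trend and 834 with only the 2 groups fitted. chr14:48410542 was at least 1186-fold lower in mutZn (0 events in both libraries). chr2:167603578 (plus), with 13 and 31 events in D27aa, 3 in the WT no-UV library and 0 in each WT and mutZn library, reached the CPM minimum only through D27aa, so its call is no evidence of its own. The 5 hotspots higher in mutZn had no D27aa event; at chr11:68886926 (plus) mutZn had 183 and 143 events and WT 0, 25 and 93, a level at least 4.82-fold that of D27aa.

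The 3 comparisons share libraries, and 1 fit. Of the 1965 tested nucleotides 911 were hotspots, and the other 1054 give a background without them. Called shares were 20.5% of hotspots and 11.9% of the others for mutZn against WT, 40.8% and 54.6% for D27aa against WT, and 60.2% and 65.5% for mutZn against D27aa. Of the others, 28.8% reached the CPM minimum only through D27aa, against 12% of the hotspots. These differences in share were not tested. Of the 187 hotspots called for mutZn against WT, 142 lay in the chromosome 17 minus-strand stretch, where 241 were tested. The 20.5% is thus not a share spread evenly over the hotspots. The deepest of the 7 libraries were those of mutZn and the shallowest WT 2 and both of D27aa, and the part of depth in these changes was not tested.

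Anti-SRSF7 and anti-GFP libraries of the same SRSF7-GFP OE genotype were compared at 413 hotspots that reached 21.2 CPM in 2 of 5 libraries, 76 of them (18.4%) only through GFP_OE. Levels were higher in GFP_OE at 154 and lower at 0, against 43.7% and 0% of all 639 nucleotides tested (limma-voom, Benjamini-Hochberg adjusted p under 0.05; 200 and 0 at unadjusted p under 0.05). The median log2 change was 1.84, and 2.03 over all. At chr1:13805393 (plus) GFP_OE had 75 and 16 events and WT 7, 0 and 0, a log2 change of 9.28 ± 1.84 (SE; limma-voom, Benjamini-Hochberg adjusted p = 0.0042). At chr17:39979947 (plus), at the start of the largest stretch, WT had 18, 1.82 and 3.79 CPM and GFP_OE 63.1 and 121 CPM. This nucleotide reached the CPM minimum only through GFP_OE, so its call is no evidence of its own. No run holds both groups, so run and antibody cannot be told apart. No call was left without WT 4, with WT 3 and WT 4 summed, with limma-trend (63 higher and 3 lower at unadjusted p under 0.05) or with median scaling, and 18 were left without WT 3, 96 without GFP_OE 4, 12 with no CPM minimum and 40 within 5 nt.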

How the data were processed

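Each of the 25 libraries was deposited as a signed score for each nucleotide. It counts cDNAs on mm9 (annotation Ensembl 59) and is negative on the minus strand, per the file headers. Peaks were called by the authors with 100 permutations over 15 nt of neighbourhood with the false discovery rate at 0.05, per the file headers, on summed replicates for UV libraries and on 1 library for each no-UV list. CASAVA 1.4 was used per the submitters' processing notes; the aligner is not given in the sources used here, nor is duplicate handling. The header of the WT UV peak list names 4 inputs, of which 3 are analysed here. Groups came from the titles.

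The union of the 3 no-UV lists was looked up in every library (Python 3.11.15, numpy 2.4.6, pandas 2.3.3), and intervals and exact permutation tests came from scipy 1.17.1. Figures were drawn with matplotlib 3.10.9. The sign of the deposited score gives only the strand, and absolute values were analysed. The planned quasi-likelihood test was set aside because of the signed unit, which was a choice and does not preclude that test. limma-voom (limma 3.58.1, R 4.3.3) was fitted instead, with group as the term and Benjamini-Hochberg adjustment at 0.05. The fit held the 7 UV anti-GFP libraries, or WT and GFP_OE, and nucleotides with at least 15 events that reached the CPM of 10 events at the median library total in 2 libraries. On simulated data, 62% of nucleotides changed 4-fold were recovered for mutZn against WT, 14% for D27aa against WT and 28% for mutZn against D27aa (1965 nucleotides), and 36% for GFP_OE against WT (639 nucleotides). False calls were 4.29%, 1.85%, 8.60% and 5.95% of those made. The simulation used 1 common dispersion (0.058, and 0.161 for GFP_OE) around the pooled level of each nucleotide. In the data the spread differed between pairs, with a dispersion index of 2.10 for WT 3 and WT 4 and 9.90 for WT 2 and WT 4. The rates thus hold for the simulated setting only.

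Named nucleotides are the strongest of each list and control, those with the most no-UV events in all 3 lists, the extremes of UV over no UV, and up to 6 called nucleotides in each direction with groups that do not overlap. The hotspots, lists and tests were chosen with earlier results of these data known. Sequence and gene names of mm9 were not used here.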

Additional observations from a re-analysis of the deposited data

Results flagged for a closer look

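The comparison of UV with no UV at nucleotides listed for the other 2 proteins gave opposite directions for mutZn and D27aa. The no-UV share was 1.46 times the UV mean for mutZn, above both UV libraries, and 0.404 times the UV mean for D27aa, below both. The difference between the proteins was not tested, since each has 1 no-UV library. The mutZn no-UV library shares a run with mutZn 3 and the D27aa no-UV library with D27aa 2. The D27aa no-UV library also shares nucleotides with WT 4, and what this contributed to the ratio was not tested.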

How the results depend on the processing

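Shares at hotspots followed the definition of the set. Within 5 nt they were 3.31% for WT, 1.71% for mutZn and 4.50% for D27aa; at nucleotides in 2 or 3 lists 0.698%, 0.221% and 1.19%; at scores of at least 2 they were 1.09%, 0.381% and 1.82%; and with each nucleotide counted once 0.381%, 0.0507% and 0.521%. For mutZn they were 0.793% without the D27aa list and 0.819% without chromosome M and unplaced contigs. Leaving out each replicate gave 1.54% to 2.42% for WT, 0.829% to 0.871% for mutZn and 2.98% to 3.16% for D27aa. The ratio of no UV to UV at the other lists, with each nucleotide counted once, was 3.42 for WT, 19.5 for mutZn and 1.84 for D27aa, where its direction reversed; this count falls with depth by construction. At scores of at least 2 the ratio was 1.57 for mutZn and 0.291 for D27aa, and for D27aa it was 0.570 within 5 nt and 0.362 without the mutZn list. Taking out every nucleotide with a WT 4 event gave 0.188, but this filter takes out D27aa no-UV events preferentially and leaves 10 of them, so it does not bear on the direction. Leaving out each UV library gave ratios of 0.898 to 1.34 for WT, 1.42 to 1.51 for mutZn and 0.391 to 0.417 for D27aa. The nucleotides in 2 or 3 lists numbered 1804 within 5 nt, 72 of 2017 at scores of at least 2 and 308 without the D27aa list, and 1207 of 2017 with scores of at least 2 were UV peaks.

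Called hotspots moved with scaling, tool and library. For mutZn against WT they numbered 0 with median scaling (130 at unadjusted p under 0.05 with limma-voom), 0 with limma-trend (205), 0 with run as a block (187), 0 with WT 3 and WT 4 summed (326), 479 with only the 2 groups fitted and 296 within 5 nt. For D27aa against WT they were 147 with median scaling, 76 with limma-trend, 182 with only the 2 groups and 187 with run as a block. For mutZn against D27aa they were 297, 360, 834 and 232. For GFP_OE against WT they were 0 with median scaling (42), 0 with limma-trend (66), 12 with no CPM minimum, 40 within 5 nt and 0 with WT 3 and WT 4 summed (90). Leaving out each replicate gave 0 to 316, 139 to 580, 397 to 452 and 0 to 216. In run 6 alone the counts were 205, 433 and 529 for the first 3 comparisons, but mutZn and D27aa have 1 library each there and are assumed to vary like WT 3 and WT 4, which alone give the spread and may not be separate cultures. The cause of these changes was not tested. No named nucleotide changed direction under the alternatives that tested it. In each comparison, however, a part of these alternatives left named nucleotides uncalled, so the direction was stable and the calls were not. The fit with run as a random block could not be fitted for GFP_OE.

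Replicate numbers 3 and 4 occur in WT, mutZn and GFP_OE. Same-numbered libraries did not deviate together (correlations of 0.04 and -0.20 for mutZn, -0.20 and 0.21 for GFP_OE), so the numbers were not taken as pairs. With the replicate block, 188 hotspots were called for mutZn against WT and 172 for GFP_OE against WT.

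No-UV depth limits single nucleotides most: 1 event there is 11.2 to 28.6 CPM, so levels below that cannot be seen there. With 1 library for each control no replicate error exists there. Only 911 of 6485 hotspots were tested in the 7 libraries, and the others have no test.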
